A study of Mus musculus with 9 samples.

Results

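Iron handling genes were followed by RNA-seq in 4T1, a breast cancer cell line from mouse, over 9 libraries. Of the 10 genes, Scara5, Tfrc, Slc11a2, Slc39a14 and Lcn2 were listed under iron entry. Fth1, Ftl1 and Ncoa4 store and release iron, Slc40a1 exports it, and Ireb2 controls several of the others. The 10 genes were taken from the 24421 genes of the count table as a hand-picked list that was selected on their measured levels in these same libraries. Their levels and differences are therefore given as a description, without p-values. All 10 were among the 12575 genes with enough counts to be tested.

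Cells were grown for 5 days in 3 conditions, with 3 libraries each. They were grown as 3D spheroids without added palmitate, as 3D spheroids with 75 µM palmitate added, and as 2D cultures with 75 µM palmitate added. No 2D library without added palmitate was analysed here, so each condition was compared with the 3D cultures that received palmitate, and both comparisons share those 3 libraries. All libraries come from 1 cell line without any genetic change named in the labels, and the labels do not say whether replicates were separate cultures, so the errors measure only the spread between these samples.

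Cells take up most iron as transferrin bound to the transferrin receptor, and can also take up ferritin, siderophores and iron that is not bound to transferrin. Iron that is not used for heme, iron-sulfur clusters or enzymes is held in ferritin, a shell of heavy and light chains, or leaves the cell through ferroportin. The iron regulatory proteins set this balance after transcription. When iron is scarce they bind hairpins in mRNAs called iron responsive elements, which keeps the transferrin receptor mRNA from decay and keeps ferritin and ferroportin mRNAs from being translated. A level of ferritin or ferroportin mRNA is thus no measure of its protein.

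These hairpins are shown for where 1 form of the element lies in the 10 mRNAs. Elements of another shape are missed, so an mRNA without a match can still carry the switch. Sense strands of the annotated untranslated regions were searched for a C, a stem of 5 pairs and the loop CAGTGN (GENCODE annotation on GRCm38). Pairs of G and T were allowed. Whether the C is unpaired and whether a stem lies below it were not checked. Tfrc held 4 elements, all in its 3′ untranslated region on the plus strand of chromosome 16, at chr16:32631220-32631246, chr16:32631599-32631625, chr16:32631664-32631690 and chr16:32631711-32631737. Fth1 held 1 in its 5′ untranslated region at chr19:9982733-9982759 on the plus strand. Ftl1 held 1 in its 5′ untranslated region at chr7:45459780-45459806 on the minus strand, and Slc40a1 held 1 in its 5′ untranslated region at chr1:45925466-45925492 on the minus strand. Each is printed from 5′ to 3′ with the loop in capitals.
Tfrc element 1: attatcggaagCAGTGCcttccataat
Tfrc element 2: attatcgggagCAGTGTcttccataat
Tfrc element 3: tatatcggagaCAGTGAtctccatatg
Tfrc element 4: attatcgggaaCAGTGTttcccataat
Fth1: tcctgcttcaaCAGTGCttgaacggaa
Ftl1: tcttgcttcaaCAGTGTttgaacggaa
Slc40a1: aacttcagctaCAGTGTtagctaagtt

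The same pattern was found in the 5′ untranslated regions of 21 of 20486 genes, or 0.103%, counting 1 transcript a gene, and in the 3′ untranslated regions of 108, or 0.527%. It was not found in those of Scara5, Slc11a2, Slc39a14, Lcn2, Ncoa4 or Ireb2, which says only that these letters do not occur in the annotated regions. The element lies in 1 of 3 protein-coding transcripts of Tfrc, in 4 of 5 of Fth1, in 1 of 2 of Ftl1 and in 1 of 4 of Slc40a1, and the gene-level counts do not tell transcripts apart.

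Libraries held 6595514 to 31177756 counts. Replicate 3 of the 3D cultures with palmitate was the shallowest, and without it 1901 instead of 275 of all genes passed between the 3D groups. Results that rest on it are given with and without it. Replicates 1 and 2 of this condition also differed, with a chi-square per gene of 16.4 between their counts. It was 19.1 and 19.7 for each of them with replicate 3, and 3.90 to 9.30 within the other conditions. Replicate 2 had the highest share of counts on Rn45s, the ribosomal RNA precursor, at 5.38%. Epithelial markers were present in every library, with Krt8 at 980 ± 39.2 to 1476 ± 74.5 counts-per-million (CPM, scaled for library composition, mean ± SD, n = 3) and Epcam at 263 ± 5.49 to 823 ± 16.2. The 7 leukocyte markers summed to 7.17 to 11.6 CPM in the 3D and 24.6 to 27.9 CPM in the 2D libraries, nearly all of it Cd68, with Cd3e and Adgre1 at 0. The 3 fibroblast markers summed to 90.6 to 110.4 CPM in 3D and 29.6 to 31.2 CPM in 2D. Nearly all of it was Pdgfra, while Lum had no counts and Dcn did not exceed 0.0827 CPM, and its part in the differences between 3D and 2D was not tested. The endothelial markers Pecam1 and Cdh5 were too low to test, and Hba-a1 and Hbb-bs were at 0. In bulk RNA, fewer cells that express a gene and less of its RNA per cell cannot be told apart.

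With palmitate present in both cultures, 8 of the 10 genes passed an adjusted p of 0.05 in the edgeR fit, all with higher levels in 3D than in 2D, as in DESeq2. At an unadjusted p of 0.05 it was 9 genes, Slc11a2 among them as lower. The difference between 3D and 2D was broad, since 68.3% of all genes tested passed, 34.5% with higher and 33.9% with lower levels in 3D. The 3D and 2D libraries did not overlap for 9 of the 10 genes, against 69.4% of all genes. The median log2 difference was 0.66 over the 10 genes and 0.01 over all genes tested. Because the list was chosen with these levels known, its distance from the background is not evidence about iron handling as a whole.

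**Figure D1:**
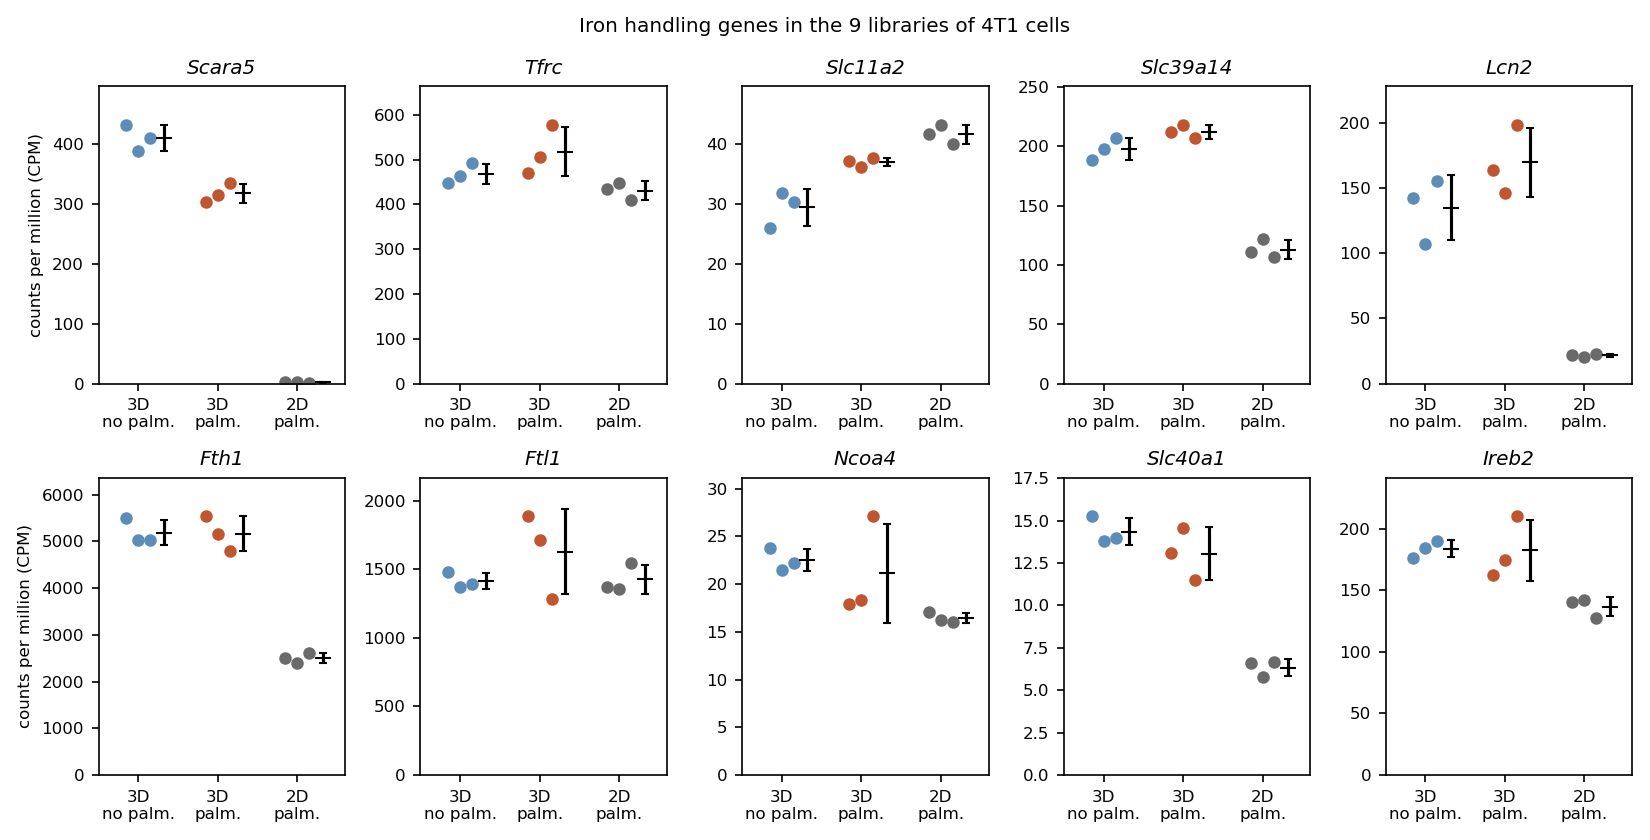
Levels of the 10 genes in each library, in counts-per-million (CPM) on a linear axis from 0, with a separate scale for each gene. Points are libraries and bars are the mean ± SD of 3 libraries. The 2D libraries lie far below both 3D conditions for Scara5 (1.86 against 318 and 410 CPM on average) and below them for Slc39a14, Lcn2, Fth1, Slc40a1, Ncoa4 and Ireb2.

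Among genes for iron entry, Scara5 differed most. It encodes a class A scavenger receptor that binds ferritin light chains and so takes up iron independently of transferrin. Its level was 303, 315 and 335 CPM in 3D with palmitate against 1.98, 1.95 and 1.65 CPM in 2D. The groups were far apart, with a log2 difference of 7.41 (SE 0.10), a 170-fold higher level in 3D, which ranked 9 among the 12575 genes tested. This SE comes from the test statistic, and with few counts in 2D the size of the difference is less exact than it implies. The 2D levels rested on 24, 61 and 37 counts, with exact 95% Poisson intervals of 15.4 to 35.7, 46.7 to 78.4 and 26.1 to 51.0 counts that cover counting error only. In 3D it had 2187 to 9150 counts per library.

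Spheroids without added palmitate held the most Scara5, at 432, 388 and 410 CPM. Every one of these libraries lay above every 3D library with palmitate, and the log2 difference of 3D with over 3D without was −0.37 (SE 0.06), a level 0.773 times as high. Scara5 and Slc11a2 were the only members that passed the threshold in this comparison, which 2.19% of all genes tested passed, 1.38% with higher and 0.811% with lower levels with palmitate. The call for Scara5 was kept under 14 of 18 alternatives. It was lost with the share of counts on Rn45s as a covariate. It was also lost without replicate 1 or 3 of the 3D cultures without palmitate and without replicate 2 of those with it. Without these libraries the log2 difference was −0.33, −0.37 and −0.37.

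Among the other class A scavenger receptors only Scara3 had enough counts to be tested. It was at 164 ± 1.46 CPM in 3D without, 149 ± 3.61 in 3D with and 78.4 ± 2.15 in 2D with palmitate, and rose in 3D over 2D by 0.93 on the log2 scale (SE 0.06, edgeR adjusted p = 3.75e-09). Msr1 and Colec12 had no counts in any library, and Marco did not exceed 0.0827 CPM.

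Lcn2 encodes lipocalin 2, a secreted protein that binds iron-laden siderophores and is known as a gene induced in inflammation. Whether these cells take up the secreted protein was not measured. Its level was 164, 147 and 199 CPM in 3D with palmitate and 21.8, 20.6 and 22.4 CPM in 2D. All 3D libraries lay well above all 2D libraries, by 2.97 on the log2 scale (SE 0.14) or 7.85-fold. In 3D without added palmitate it was at 143, 108 and 156 CPM, which overlapped with the palmitate group, and the log2 difference between these was 0.32 (SE 0.12), which did not pass except without a filter on low counts, at 0.30.

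Slc39a14 encodes ZIP14, a carrier of iron that is not bound to transferrin, and of zinc and manganese. It was at 212, 218 and 207 CPM in 3D with and at 111, 122 and 107 CPM in 2D with palmitate. The groups were separate, with a log2 difference of 0.91 (SE 0.07). In 3D without added palmitate it was at 189, 198 and 207 CPM, which just reached the lowest of the palmitate libraries, and the log2 difference was 0.10 (SE 0.07).

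Tfrc, the transferrin receptor, was at 469, 507 and 578 CPM in 3D with and at 435, 449 and 409 CPM in 2D with palmitate. The groups did not overlap but lay close, with a log2 difference of 0.26 (SE 0.08). Without replicate 3 of the 3D cultures it was 0.18, still past the threshold, and it fell below the threshold at 0.05 once trends with transcript GC content and length were taken out of each library. In 3D without added palmitate it was at 448, 463 and 493 CPM, which overlapped with both other groups, and the log2 difference of 3D with over 3D without palmitate was 0.15 (SE 0.08), which did not pass, while with these trends removed it was 0.22 and did.

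Slc11a2, which encodes the divalent metal transporter DMT1, was the member whose level was lowest in 3D without palmitate and highest in 2D. It was at 26.0, 31.9 and 30.4 CPM in 3D without, at 37.2, 36.2 and 37.7 CPM in 3D with and at 41.8, 43.2 and 40.0 CPM in 2D with palmitate. The 3 groups did not overlap. The 3D libraries with palmitate were 0.17 (SE 0.08) below 2D on the log2 scale, which did not pass, and 0.33 (SE 0.08) above 3D without palmitate, which passed narrowly. The first passed at −0.20 without a filter, at −0.19 with GC content and length trends removed and at −0.17 without replicate 1 of 3D without palmitate. The second call was kept without replicate 3 of the 3D cultures with palmitate, at 0.33, and was lost when any other library was left out, at log2 differences of 0.25 to 0.39. Over all 18 alternatives it was kept in 4. Slc11a2 shares 402 exonic bases with Gm5475 on the opposite strand, a gene with no counts in any library.

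Of the ferritin chains, the heavy chain was higher in both 3D conditions than in 2D. Fth1 encodes this chain, which holds the ferroxidase center that oxidizes iron for storage. It was at 5501, 5036 and 5034 CPM in 3D without, 5538, 5155 and 4787 CPM in 3D with and 2503, 2408 and 2612 CPM in 2D with palmitate. Both 3D groups were separate from 2D, while they overlapped with each other. The log2 difference was 1.04 (SE 0.07) for 3D over 2D and −0.01 (SE 0.07) for 3D with over 3D without palmitate.

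Ftl1 encodes the light chain, which favors mineral formation in the shell. It was at 1484, 1371 and 1394 CPM in 3D without, 1887, 1713 and 1283 CPM in 3D with and 1371, 1360 and 1548 CPM in 2D with palmitate. The 3 groups overlapped, and replicate 3 of 3D with palmitate was the lowest of all 9 libraries while replicates 1 and 2 were the highest. The log2 difference was 0.19 (SE 0.11) for 3D over 2D and 0.20 (SE 0.11) for 3D with over 3D without palmitate, and neither passed. Without that replicate these were 0.33 and 0.35, and both passed. The difference of 3D over 2D also passed at 0.52 with GC content and length trends removed and at 0.16 without a filter on low counts.

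The ratio of the chains follows from these levels. Per kb of transcript, Fth1 over Ftl1 was 3.86, 3.83 and 3.76 in 3D without, 3.06, 3.14 and 3.89 in 3D with and 1.90, 1.84 and 1.76 in 2D with palmitate. All 6 spheroid libraries lay above all 2D libraries, and among 3D libraries with palmitate replicate 3 lay inside the range without palmitate while the other 2 lay below it. The means were 3.82 ± 0.0501, 3.36 ± 0.459 and 1.83 ± 0.0727 (SD, n = 3), and the middle one was 3.10 without replicate 3. Per kb, Fth1 averaged 5587, 5555 and 2699 CPM and Ftl1 1463, 1681 and 1474 CPM in the same order. The genome holds processed copies of both chains. None of these is a row of the count table under its GENCODE name, and older names were not searched, so how reads shared with them were counted is not known.

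**Figure D2:**
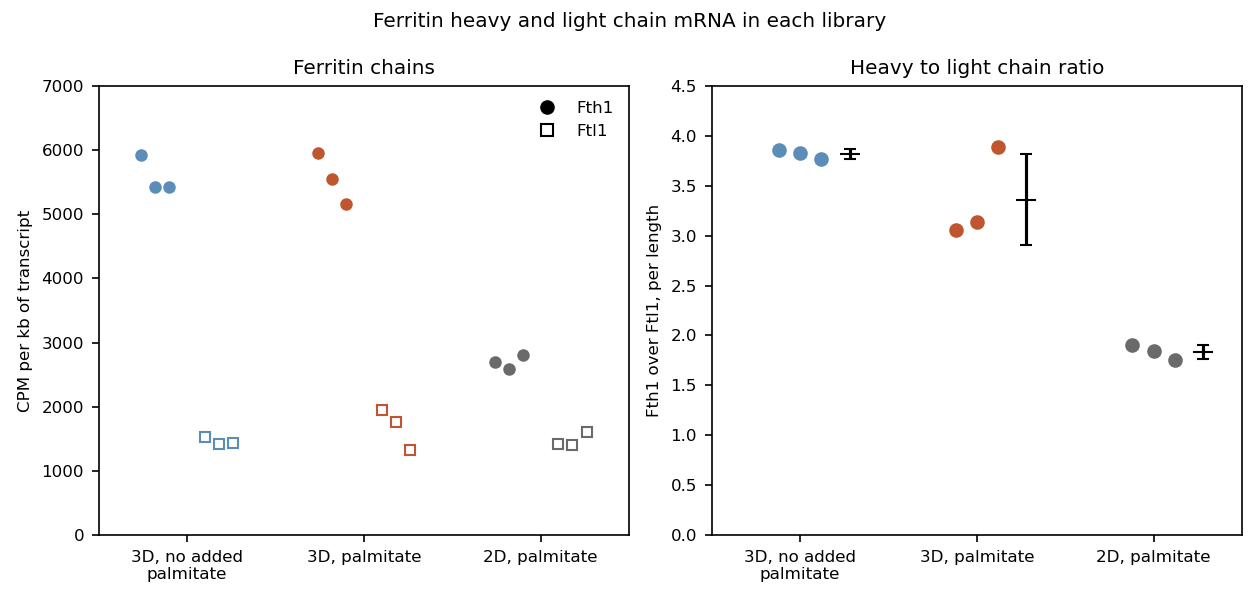
Left, Fth1 (filled circles) and Ftl1 (open squares) in CPM per kb of transcript in each library. Right, their ratio in each library with the mean ± SD of 3 libraries. The ratio lies between 3.06 and 3.89 in the 6 spheroid libraries and between 1.76 and 1.90 in the 2D libraries.

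Ncoa4 is the receptor that carries ferritin to lysosomes for iron release. It was at 23.8, 21.5 and 22.2 CPM in 3D without, 17.9, 18.4 and 27.1 CPM in 3D with and 17.0, 16.2 and 16.0 CPM in 2D with palmitate. Again replicate 3 of 3D with palmitate was apart from the other 2, here as the highest of all libraries. The log2 difference of 3D over 2D was 0.30 (SE 0.13) and passed, but without that replicate it was 0.14 and did not. The log2 difference of 3D with over 3D without palmitate was −0.16 (SE 0.12) and did not pass, but without that replicate it was −0.32 and did. The call for 3D over 2D was also lost with library size only, with only the 2 groups compared, with GC content and length trends removed and when any other library was left out except replicate 1 or 2 of the 3D cultures with palmitate.

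Slc40a1 encodes ferroportin, the only known iron exporter of mammalian cells. It was at 15.3, 13.8 and 14.0 CPM in 3D without, 13.1, 14.6 and 11.5 CPM in 3D with and 6.62, 5.77 and 6.64 CPM in 2D with palmitate. Both 3D groups were apart from 2D and overlapped with each other. The log2 difference was 1.08 (SE 0.11) for 3D over 2D and −0.12 (SE 0.11) for 3D with over 3D without palmitate.

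Ireb2 encodes iron regulatory protein 2, one of the proteins that bind the hairpins printed above. It was at 176, 184 and 190 CPM in 3D without, 162, 175 and 210 CPM in 3D with and 140, 142 and 128 CPM in 2D with palmitate. The 2D libraries were the lowest, and the 3D groups overlapped. The log2 difference was 0.41 (SE 0.09) for 3D over 2D, 0.30 without replicate 3 of 3D with palmitate and 0.12 with GC content and length trends removed, each past the threshold. Between the 3D groups it was −0.02 (SE 0.09).

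Ordered by mean level per kb in 2D with palmitate, Fth1 at 2699 and Ftl1 at 1474 CPM per kb came first, followed by Tfrc at 88.2, Ireb2 at 23.7, Lcn2 at 23.6, Slc39a14 at 22.9, Slc11a2 at 13.8, Ncoa4 at 4.04, Slc40a1 at 1.88 and Scara5 at 0.491. Ireb2, Lcn2 and Slc39a14 were not set apart by their spread. In 3D with palmitate the order was Fth1 at 5555, Ftl1 at 1681, Lcn2 at 186, Tfrc at 106, Scara5 at 83.7, Slc39a14 at 43.1, Ireb2 at 31.6, Slc11a2 at 12.2, Ncoa4 at 5.20 and Slc40a1 at 3.87 CPM per kb. In 3D without palmitate it was Fth1 at 5587, Ftl1 at 1463, Lcn2 at 148, Scara5 at 108, Tfrc at 95.6, Slc39a14 at 40.2, Ireb2 at 31.8, Slc11a2 at 9.73, Ncoa4 at 5.54 and Slc40a1 at 4.26 CPM per kb. Neighbors in the 3D orders did not overlap between libraries. Scara5 thus stood last in 2D and in the middle of the order in 3D.

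**Figure D3:**
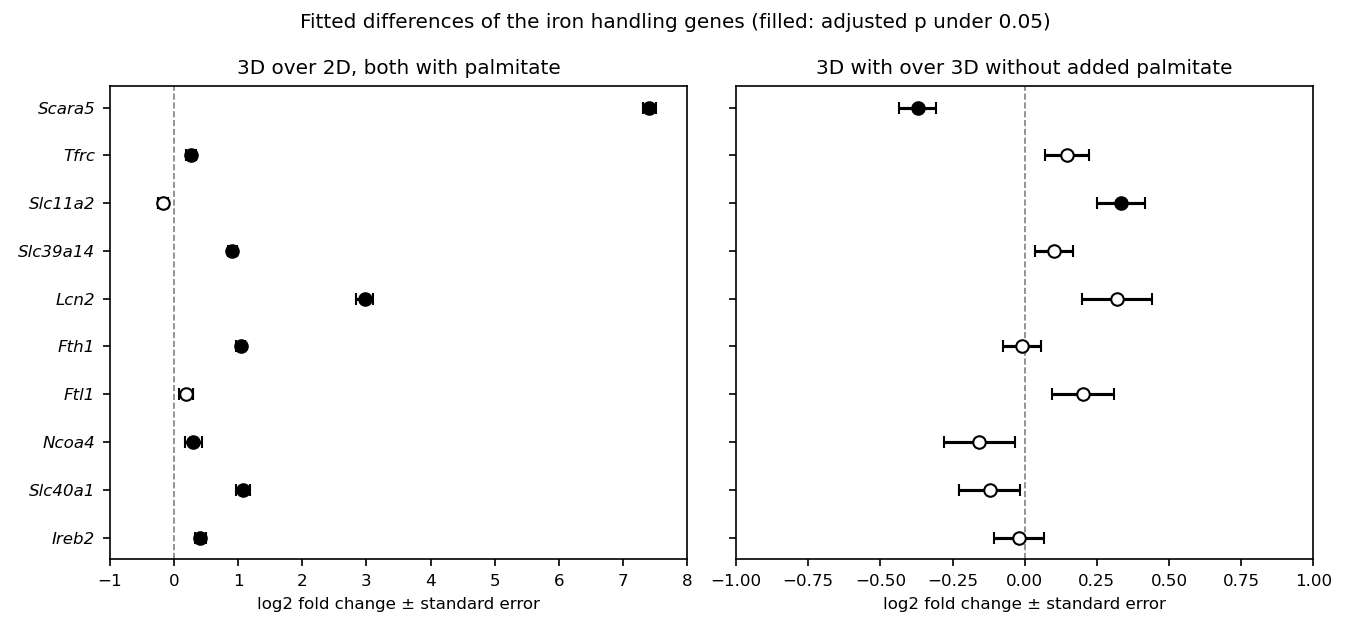
Fitted log2 fold change of the 10 genes with its standard error, for 3D over 2D with palmitate (left) and 3D with over 3D without added palmitate (right, on a narrower axis). Filled points passed an adjusted p of 0.05. On the left Scara5 lies at 7.41 and Lcn2 at 2.97, and on the right all genes lie between −0.37 and 0.33.

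Between spheroids with and without added palmitate, 2 of the 10 genes passed, Slc11a2 as higher and Scara5 as lower with palmitate. The libraries of the 2 groups did not overlap for these 2 of the 10 genes, a share near the 18.6% of all genes tested. The median log2 difference was 0.05 over the 10 genes and 0.01 over all genes. The median size of a difference, whatever its sign, was 0.10 over all genes tested, against 0.43 for 3D over 2D.

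The genes whose profile over the 9 libraries was most like that of Scara5, by the root mean square difference of centered log2 CPM, were Aldh3a1 (0.281), Gas7 (0.403) and Nlrp10 (0.465). For Lcn2 they were Mmp3 (0.151), Selp (0.178) and Ptges (0.203). For Fth1 they were Cd82 (0.0418), Kctd15 (0.0430) and Eva1c (0.0492), and for Slc40a1 they were Kctd15 (0.0717), AI467606 (0.0790) and Ift122 (0.0830). The other members spanned less than 1 log2 unit between group means and were not matched.

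The wider pathway was read from lists of 94 genes at 7 steps of iron handling, of which 79 were tested. In 3D over 2D with palmitate 15 rose, 42 fell and 22 did not pass, and the median log2 difference was −0.22. The share called, 72.2%, lay near the 68.3% of all genes tested. In 3D with over 3D without palmitate 4 rose, none fell and 75 did not pass, with a median of 0.09, so that 5.06% were called against 2.19% of all genes tested. At an unadjusted p of 0.05 in edgeR 19 were higher and 2 lower, and DESeq2 called 6 higher and none lower. All p-values below are edgeR's, adjusted over all genes tested. The lists were drawn up with earlier results of these data known. Their shares and p-values thus describe these genes and are not independent evidence about iron handling.

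For entry and reduction, 11 of 17 genes were tested, and 5 rose and 4 fell in 3D over 2D. The share called was 81.8%, against 68.3% of all genes tested. The endocytic receptor Lrp1, which takes up heme bound to hemopexin, rose by 1.39 (SE 0.07, adjusted p = 2.03e-10), the endosomal ferric reductase Steap3 by 1.01 (SE 0.08, adjusted p = 3.32e-08) and the metal carrier Slc39a8 by 1.43 (SE 0.16, adjusted p = 1.72e-06). The related gene Steap1 went the other way, at 18.8, 19.7 and 16.8 CPM in 3D with and 59.9, 57.1 and 63.0 CPM in 2D with palmitate. It fell by 1.68 (SE 0.08, adjusted p = 2.55e-10). Steap2 fell by 0.55 (SE 0.08, adjusted p = 3.14e-05), and Cubn, a receptor for filtered proteins, fell by 0.63 (SE 0.15, adjusted p = 0.00162).

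Among genes for storage and iron chaperones, all 5 tested passed in 3D over 2D, a comparison that 68.3% of all genes tested passed. The chaperones that hand iron to ferritin fell, Pcbp1 by 0.61 (SE 0.07, adjusted p = 4.08e-06) and Pcbp2 by 0.44 (SE 0.06, adjusted p = 2.49e-05). Bola2 and Glrx3, partners in cytosolic iron-sulfur cluster transfer, fell by 0.96 (SE 0.13, adjusted p = 9.13e-06) and 0.92 (SE 0.13, adjusted p = 1.71e-05). Herc2, a ubiquitin ligase that acts on NCOA4, rose by 0.67 (SE 0.10, adjusted p = 5.12e-05). Mitochondrial ferritin, Ftmt, had no counts.

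Of 12 genes for export and its hormonal control 5 were tested. Cp, which encodes ceruloplasmin, the ferroxidase that works with ferroportin, was at 265, 299 and 464 CPM in 3D with and 65.2, 69.7 and 67.4 CPM in 2D with palmitate, and rose by 2.33 (SE 0.16, adjusted p = 1.25e-08). Replicate 3 was again the highest, and all 3D libraries were above all 2D libraries. Neo1, a co-receptor for hemojuvelin, rose by 1.20 (SE 0.07, adjusted p = 1.07e-09). Tmprss6, a protease that limits hepcidin, also rose (adjusted p = 3.31e-07) but was low throughout, at 1.68 to 2.43 CPM in 3D with and 0.0827 to 0.128 CPM in 2D with palmitate. Erythroferrone, listed as Fam132b, fell by 0.87 (SE 0.08, adjusted p = 2.57e-07), and Hfe was at −0.01 (SE 0.13, adjusted p = 0.932).

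Other genes of the iron regulatory protein system differed little. Aco1, which encodes iron regulatory protein 1, rose by 0.27 in 3D over 2D (SE 0.07, adjusted p = 0.00276), and Cdc14a, whose mRNA can also carry an iron responsive element, rose by 0.41 (SE 0.09, adjusted p = 0.000816). Cdc42bpa fell by 0.18 (SE 0.07, adjusted p = 0.0312), a call kept under 11 of 18 alternatives. It was lost without replicate 1 or 2 of 3D with or of 2D with palmitate. The call was also lost with only the 2 groups compared, the replicate block or the Rn45s share as a covariate. Fbxl5, the iron-sensing part of the ligase that degrades IRP2, was at 0.07 (SE 0.07, adjusted p = 0.397), and Epas1 was too low to test. None of the 5 genes tested from this list passed in 3D with over 3D without palmitate in edgeR or DESeq2, and 1 was higher and 1 lower at an unadjusted p of 0.05.

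The largest list, mitochondrial import and iron-sulfur cluster assembly, had 34 genes, all tested. In 3D over 2D 24 fell, 1 rose and 9 did not pass, with a median log2 difference of −0.39. The share called was 73.5%, near the 68.3% of all genes tested, of which 33.9% were lower and 34.5% higher. Hspa9, the chaperone of cluster transfer, was at 451, 489 and 535 CPM in 3D with and 1193, 1173 and 1102 CPM in 2D with palmitate, without overlap, and fell by 1.23 (SE 0.07, adjusted p = 1.07e-09). The cluster proteins Cisd1 and Cisd3 fell by 0.96 (SE 0.08, adjusted p = 4.58e-08) and 1.38 (SE 0.15, adjusted p = 1.32e-06). Isca1 rose by 0.26 (SE 0.10, adjusted p = 0.0271), a call lost without replicate 2 or 3 of the 2D cultures, without a filter on low counts and with the Rn45s share as a covariate. In 3D with over 3D without palmitate none of the 34 passed in edgeR, where 9 were higher and none lower at an unadjusted p of 0.05, while DESeq2 called 2 higher. Their median was 0.14.

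In heme synthesis 5 of 10 genes fell and 1 rose in 3D over 2D, a share called of 60% against 68.3% of all genes tested. Cpox, which acts in the mitochondrial intermembrane space, fell by 1.00 (SE 0.06, adjusted p = 2.43e-09), Alad by 0.71 (SE 0.12, adjusted p = 7.71e-05) and the porphyrin carrier Tmem14c by 0.47 (SE 0.07, adjusted p = 5.58e-05), while Uros rose by 0.58 (SE 0.13, adjusted p = 0.00145). In heme transport and breakdown 2 of 9 rose and 2 fell, a share called of 44.4%, below that of all genes tested. Blvrb, a biliverdin reductase, rose by 1.84 (SE 0.13, adjusted p = 2.12e-08) and the heme carrier Slc48a1 by 0.68 (SE 0.07, adjusted p = 7.15e-07), and the heme exporter Abcg2 fell by 2.00 (SE 0.14, adjusted p = 1.41e-08) and Hmox2 by 0.54 (SE 0.07, adjusted p = 1.51e-05).

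**Figure D4:**
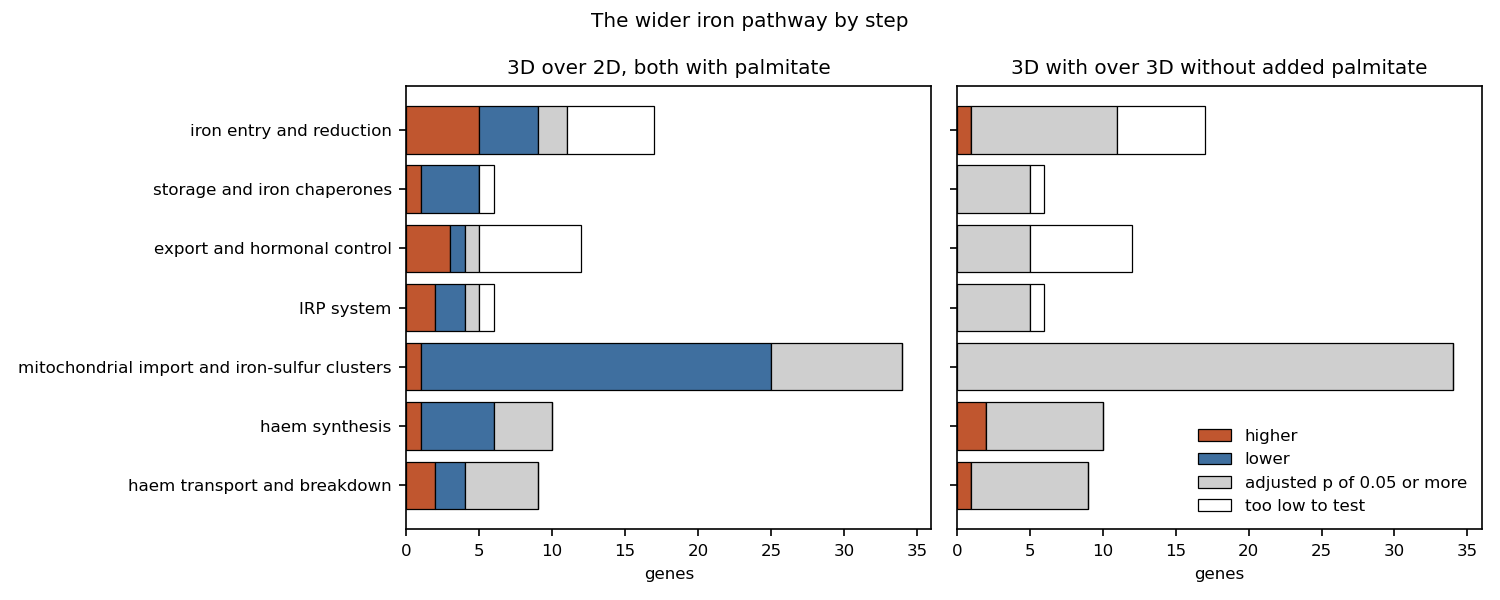
Number of genes at each step of the wider iron pathway that were higher, lower, not past an adjusted p of 0.05 or too low to test, for 3D over 2D with palmitate (left) and 3D with over 3D without added palmitate (right). The bar for mitochondrial import and iron-sulfur clusters holds 24 lower genes of 34 on the left and none called on the right. With all libraries used, 68.3% of all genes tested passed on the left and 2.19% on the right.

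With palmitate added to spheroids, 4 of the listed pathway genes passed as higher, namely Hmox1, Steap1, Alas1 and Cpox. They come from the lists for heme and for iron entry and reduction. This does not limit the rise to these steps, since which genes passed depended on the threshold and on the libraries used. Slc11a2 also passed as higher, by 0.33 (SE 0.08). Of the genes for mitochondrial import and iron-sulfur clusters 9 were higher and none lower before adjustment. Hmox1, the inducible heme oxygenase that frees iron from heme, was at 26.6, 23.3 and 26.4 CPM without and 43.2, 42.0 and 35.8 CPM with palmitate. All libraries with palmitate were above all without it, and it rose by 0.68 (SE 0.08, adjusted p = 0.000918). In 2D with palmitate it was at 46.9, 44.7 and 47.5 CPM, against which 3D with palmitate was at −0.18 (SE 0.08, adjusted p = 0.0580).

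Steap1 rose from 12.3 ± 0.81 to 18.4 ± 1.45 CPM, by 0.60 (SE 0.09, adjusted p = 0.00305). Alas1, the first enzyme of heme synthesis, was at 21.3, 24.0 and 23.5 CPM without and 31.5, 29.6 and 31.5 CPM with palmitate, and rose by 0.43 (SE 0.08, adjusted p = 0.00913). The call for Alas1 was lost without replicate 1 of 3D without palmitate, with only the 2 groups compared and with the share of counts on Rn45s as a covariate, where adjusted p reached 0.0571, and that for Steap1 was lost with the covariate alone, at 0.0600. Cpox rose by 0.25 (SE 0.06, adjusted p = 0.0474), a call kept under 3 of 18 alternatives, where adjusted p reached 0.247. The count of 4 genes was 2 without replicate 1 of 3D without palmitate and 21 without replicate 3 of 3D with palmitate, of which 19 rose and 2 fell.

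Of 8 transcription factors known to act on iron genes, 5 rose and 1 fell in 3D over 2D, a share called of 75% against 68.3% of all genes tested. Nfe2l2, which encodes NRF2 and drives ferritin and Hmox1, rose by 1.16 (SE 0.09, adjusted p = 5.56e-08), and Bach1, a repressor of the same genes, rose by 1.40 (SE 0.08, adjusted p = 1.16e-09). Cebpb rose by 0.52 (SE 0.13, adjusted p = 0.00317), Cebpd by 0.46 (SE 0.16, adjusted p = 0.0170) and Hif1a by 0.34 (SE 0.10, adjusted p = 0.00600). For Cebpb the groups overlapped, at 200, 172 and 121 CPM in 3D with and 124, 109 and 116 CPM in 2D with palmitate. Its call was kept under all 18 alternatives, at 0.35 to 0.73. The call for Cebpd was lost without replicate 1 of 3D with or replicate 2 of 2D with palmitate. Myc, which has been tied to Ireb2, Tfrc and Fth1 transcription, fell by 1.47 (SE 0.07, adjusted p = 3.19e-10). Rela was at 0.07 (SE 0.08, adjusted p = 0.433).

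Nfkbiz, an NF-κB cofactor that takes part in Lcn2 induction, was at −0.14 in 3D over 2D (SE 0.06, adjusted p = 0.0524), and rose by 0.28 in 3D with over 3D without palmitate (SE 0.06, adjusted p = 0.0274). This call was lost under 11 of 18 alternatives, where adjusted p reached 0.179. RefSeq promoter windows on GRCm38.p6, 250 bases before to 50 after the start, were available for Tfrc, Lcn2, Fth1, Ftl1, Ncoa4 and Ireb2. On either strand the NF-κB pattern, GGG, any 5 bases and CC, was found in at least 1 window of each of these 6, and in 50.8% of all 32851 windows. Tfrc, Fth1 and Ncoa4 had more than 1 window, and an Ncoa4 window lacked the pattern. Counts by gene and shares by window are thus not on the same scale. The hypoxia core ACGTG was found for Tfrc and Ncoa4 (19.6% of all windows), the antioxidant core TGACNNNGC for Ncoa4 alone (12.4%) and the E-box CACGTG, which contains the hypoxia core, for none (7.15%).

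Proliferation genes were read beside these because transferrin receptor levels go with growth. Of 10 genes 3 fell in 3D over 2D in edgeR, a share called of 30% against 68.3% of all genes tested. At an unadjusted p of 0.05 in edgeR 5 were lower, and DESeq2 called 4 lower. None rose by any of these. Cdk1 fell by 0.37 (SE 0.06, adjusted p = 5.67e-05), Ccnb1 by 0.29 (SE 0.06, adjusted p = 0.000519) and Mcm2 by 0.20 (SE 0.06, adjusted p = 0.00608). In 3D with over 3D without palmitate Rrm2 rose by 0.37 (SE 0.06, adjusted p = 0.00711). This call was lost without replicate 1 of 3D without or replicate 2 of 3D with palmitate and with the Rn45s share as a covariate. Their part in the levels of Tfrc was not tested.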

How the data were processed

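The authors deposited raw gene counts, 1 column per library, made from a stranded poly-A kit. Per the labels, HISAT2 2.1.0 and HTSeq were used with GRCm38 (FastQC 0.11.9). The annotation release and the strand setting are not given in the sources used here. The counts were fitted with edgeR 4.0.16 (R 4.3.3) by quasi-likelihood over all 9 libraries with condition as the only term, TMM scaling and filterByExpr. P-values were Benjamini-Hochberg adjusted over all genes tested, and called under 0.05. The standard error is the log2 fold change over the square root of F, and can be too small where a group held few counts. The fit was tested on simulated counts. CPM are TMM-scaled, and profiles used a prior count of 2. Transcript lengths come from the GENCODE annotation, with 24037 of 24421 genes matched by symbol or synonym, and 10 listed symbols were found under an older name. Library totals limit precision for low genes. No file gives molecular identifiers, so intervals cover counting error only.

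The 10 genes and all lists were chosen with earlier results of these data known. The text names all 10, and from each list the 3 rising and 3 falling genes with the smallest p in each comparison, any gene of a list of 8 or fewer (1 such gene is not reported here), and for members spanning over 1 log2 unit the 3 most similar profiles. Alternatives were other scalings, filters and samples, a replicate block, DESeq2 1.42.0, removal of GC content and length trends by splines, the share of counts on Rn45s (ribosomal RNA precursor) as a covariate, and each library left out.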

Additional observations from a re-analysis of the deposited data

How the results depend on the processing

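In 3D over 2D with palmitate, 7 to 10 of the 10 genes (8 in the fit as reported) and 52 to 60 of the 79 listed genes (57) passed under every alternative run. In 3D with over 3D without palmitate the 2 calls among the 10 genes became 1 with RLE scaling, library size only, at least 10 counts in every library, only the 2 groups compared or the replicate block, 0 with the Rn45s share as covariate, 3 without a filter or with GC content and length trends removed, and 0 to 4 with a library left out, 4 without replicate 3 of 3D with palmitate. The 4 calls among listed genes became 8 without a filter, 2 with only the 2 groups compared, 14 with GC content and length trends removed, 1 with the Rn45s covariate, and 2 to 21 with a library left out. Over all genes 275 calls became 1901 without that replicate, 1059 with GC content and length trends removed, 617 without a filter, 111 with the replicate block and 44 with the Rn45s covariate. Fewer genes or samples are tested in some of these, and the cause was not tested. The Fth1 difference between the 3D groups ranged from −0.063 to 0.042 with a library left out. That of Ireb2 ranged from −0.13 to 0.058, and was 0.075 with GC content and length trends removed and 0.030 with the Rn45s covariate. Of 360 alternative values of the 10 genes 314 kept direction and call, 29 lost the call, 10 gained it and 7 changed sign, and of 845 of the named listed genes 799 kept both and 46 lost the call. The ferritin ratio in 3D without palmitate was 3.68 by coding length. Same-numbered libraries did not deviate together (median correlation −0.05 over 9 pairs, 0.03 over 18 others), so the numbers were not taken as pairs, and the replicate block gave 8 and 55 calls in 3D over 2D and 1 and 3 in 3D with over 3D without palmitate. Adding counts of ferritin copies was not run, as none is in the count table under its GENCODE name. Low depth limits precision where a group held few counts, as for Scara5 and Tmprss6 in 2D.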
